A study of Mus musculus with 96 samples.

Results

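This comparison is about ribosome footprints in the 5' untranslated region (5' UTR) of mRNAs, set against footprints in the coding sequence of the same mRNAs, in an Eif3c mutant mouse line and in wild type. The samples were neural tubes of E11.5 embryos, of the heterozygous genotype C3HeB/Eif3cXs-J/+ (mut, 3 pools) or C3HeB (WT, 3 pools). Footprints came from 44 of the 96 lane samples of the series, summed into 6 of its 12 libraries; the other 4 lane samples of mut footprint pool 1 held counts on 3 of 20 chromosomes at most and were left out, and the RNA libraries of the same pools were used beside the footprints. Members were chosen by annotation and coverage: of 22446 genes with a coding count, 20735 had a 5' UTR on the transcript with the most coding counts, and 10907 of these passed a filter on low counts and were tested. Each gene's ratio is given as 5' UTR counts per 100 coding counts, where the coding count omits 15 codons at the start and 5 at the end of the reading frame. The allele is part of the embryos' genotype and not limited to 1 cell type. Each library is a pool; the labels name 1 litter as the source of neural tubes and do not tie each pool to its own litter, so a p-value here covers pool-to-pool spread, which may be technical.

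Eukaryotic translation starts when the small ribosomal subunit, carrying initiation factors, binds the capped 5' end of an mRNA and scans along the 5' UTR to a start codon. eIF3, of which Eif3c encodes a subunit, is a large complex that binds the small subunit and takes part in this recruitment and scanning. Ribosomes also translate short upstream reading frames in many 5' UTRs, and in mRNAs such as Atf4 these frames control how many ribosomes reach the main coding sequence. A footprint in the 5' UTR can come from such a frame or from a ribosome at the main start codon, because fragments of 28 to 31 bases that span the start codon were counted both in the 5' UTR and in the coding sequence.

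The stretches around the main start codon are shown first for 9 genes among those whose ratio changed most, since fragments that span this codon enter the 5' UTR count. Each runs from 12 bases before the start codon, or from the 5' end where the 5' UTR is shorter, to 15 bases after it, 5' to 3' on the coding strand, from GENCODE vM21 transcripts, with the start codon in capitals. The first 5 had higher ratios in mut and the last 4 lower ones.
Atp5k: gtcacggacaaaATGgtgcccccggttcag
Rtraf: gcagcggggaccATGttccgacgcaagctc
Vps11: gccttcggcaagATGgcggcctacctgcag
Hsd17b10: ggcttgtgcaagATGgctgcggcagttcgg
Mrps27: gtgcgctccaagATGgcggctcccatggtg
Sat1: caaaagacgaaaATGgctaaatttaagatc
Hist2h3b: agtcgcaaaaatATGgcccgtacgaagcag
Slc26a11: cccagcctgcacATGgcaccagacacatgc
Hnrnpa3: tccggtctcaaaATGgaggtaaaaccgccg

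The targeted gene was measured first. Eif3c (chromosome 7, 126546455 to 126566411, minus strand, mm10) had 4514, 4331 and 5678 coding footprints in mut pools and 44791, 12740 and 24251 in WT pools, in libraries of 10725887 to 14073724 coding counts in mut and 16372783 to 56050833 in WT over the tested genes. Scaled for depth, its coding footprints fell by 0.97 on the log2 scale (edgeR quasi-likelihood test, adjusted p = 0.0019) and its 5' UTR footprints fell by 1.11 (adjusted p = 8.6e-04). Its ratio was 8.46, 6.23 and 6.66 per 100 in mut pools and 7.18, 6.18 and 6.404 in WT pools, and the groups overlapped.

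Summed over the tested genes, there were more 5' UTR footprints per coding footprint in mut pools 1 and 3, while mut pool 2 lay close to WT. The ratio was 21.3, 17.6 and 20.6 per 100 in mut pools 1, 2 and 3, and 17.3, 17.2 and 17.2 in WT pools. The means were 19.9 ± 1.98 in mut and 17.2 ± 0.0699 in WT (SD, n = 3 each), a difference of 0.20 on the log2 scale, or 0.28 without mut pool 2. All mut pools were above all WT pools. An exact two-sided permutation test gave p = 0.1, the smallest value that 3 against 3 allows, and 0.4 after adjustment over 20 such comparisons. The median gene moved in the same way, with 20.8, 16.8 and 19.5 per 100 in mut pools and 16.2, 16.7 and 16.4 in WT pools (exact permutation p = 0.1). In mut pool 1, 80.6% of genes lay above their WT mean, in mut pool 3 77.7%, and in mut pool 2 54.9%.

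**Figure D1:**
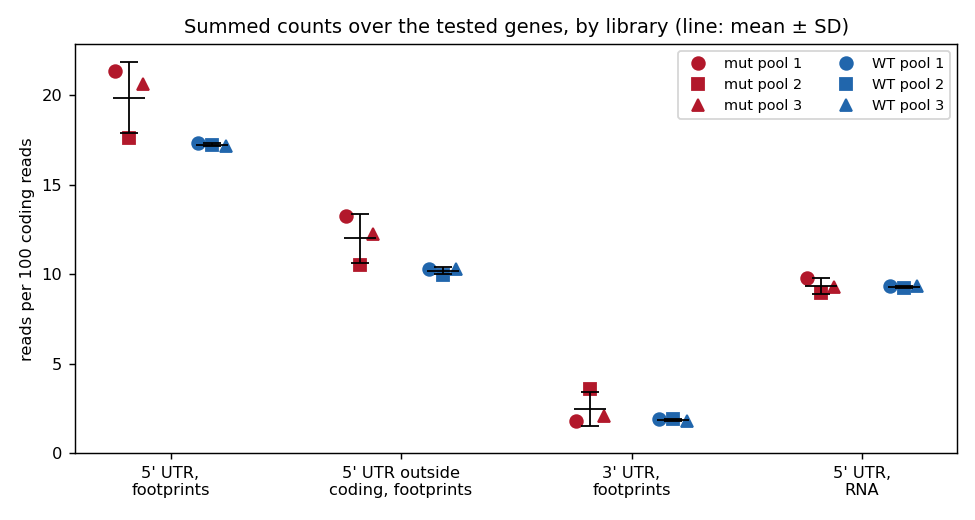
Reads per 100 coding reads in each library, summed over the tested genes, for 5' UTR footprints, the part of them outside the coding sequence, 3' UTR footprints, and 5' UTR reads in RNA; points are pools, mut left of WT, and lines are means with SD. For 5' UTR footprints mut pools 1 and 3 lie at 21.3 and 20.6 and mut pool 2 at 17.6, beside 17.2 to 17.3 in WT.

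The difference was also present in reads that lay wholly before the start codon. A lower bound for these, whole-transcript counts minus coding and 3' UTR counts, came to 13.3, 10.5 and 12.3 per 100 in mut pools and 10.3, 9.97 and 10.3 in WT pools (exact permutation p = 0.1). Reads that crossed either border of the coding sequence numbered 8.09, 7.07 and 8.37 per 100 in mut pools and 7.01, 7.26 and 6.85 in WT pools, so that these groups overlapped. The shift was not limited to the 5' UTR. Reads in the codons that the coding count omits came to 10.1, 8.33 and 10.1 per 100 in mut pools. In WT pools they came to 8.28, 8.26 and 8.19 (exact permutation p = 0.1), a log2 difference of 0.20. For the median gene these groups overlapped, at 6.89, 5.71 and 6.55 in mut pools and 5.46, 5.83 and 5.50 in WT pools. In RNA, 5' UTR reads stood at 9.81, 8.96 and 9.28 per 100 coding reads in mut pools and 9.35, 9.21 and 9.32 in WT pools, again with overlap. Mut pool 2, the pool nearest to WT in its 5' UTR, stood apart in its 3' UTR, with 3.57 footprints per 100 there, while mut pools 1 and 3 had 1.81 and 2.10 and WT pools 1.82 to 1.92. Markers of other cell types also differed between pools. The 13 erythroid markers summed to 14439, 9165 and 8392 CPM (counts scaled to coding depth) in mut pools and 8865 to 10099 in WT pools, the 10 endothelial markers to 837, 475 and 526 CPM in mut pools and 505 to 593 in WT pools, and the 10 mesenchyme and somite markers to 1875, 1304 and 1188 CPM in mut pools and 1011 to 1188 in WT pools, with none of these genes at 0 in all libraries. Mut pool 1 was highest in each, and their part in the results was not tested. The 11 neural progenitor markers summed to 6561 to 7258 CPM in mut pools and 6590 to 6960 in WT pools. The 12 neuron markers summed to 10464, 10764 and 9945 CPM in mut pools and 11075, 11641 and 12126 in WT pools, so that all mut pools were below all WT pools. The part of these markers in the results was not tested either. These are footprint sums of whole tissue, which cannot tell apart fewer cells of a type, less RNA per cell and fewer footprints per mRNA.

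Gene by gene, the ratio was tested relative to the shift of all genes, which is centred out by scaling 5' UTR and coding counts separately. With edgeR's quasi-likelihood test and Benjamini-Hochberg adjustment, 639 of 10907 genes (5.86%) passed an adjusted p of 0.05. Of these, 395 were higher in mut (3.62%) and 244 lower (2.24%). Without centring the median gene moved up by 0.22 on the log2 scale, and 988 genes were then higher (9.06%) and 33 lower (0.303%). Without any scaling, all mut pools lay above all WT pools in 2974 genes (27.3%) and below them in 367 (3.36%). Tested alone, 5' UTR footprints changed in 944 genes (8.65%), 551 higher (5.05%) and 393 lower (3.6%). Coding footprints changed in 22 genes (0.202%), 19 higher (0.174%) and 3 lower (0.0275%), while DESeq2 called 816. Without mut pool 2 these numbers were 2001 for 5' UTR and 2097 for coding footprints, and without WT pool 1 they were 47 and 5. The median change of 5' UTR footprints was 0.77 among genes with a higher ratio and -0.48 among those with a lower one; for coding footprints it was -0.04 and 0.20.

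The number of called genes depended on single libraries and on the test. Without mut pool 2 it was 1031, without mut pool 1 375 and without mut pool 3 337. Without WT pool 1, the deepest library, it was 48, and without WT pool 3 155. limma on the log2 ratios of the 6 libraries called 0 genes, with a smallest adjusted p of 0.068 and 2126 genes at an unadjusted p under 0.05; DESeq2 called 574. All 639 genes kept their direction in each fit that left out a library. These fits share libraries with the fit that chose the genes, so the kept direction is not separate support.

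**Figure D2:**
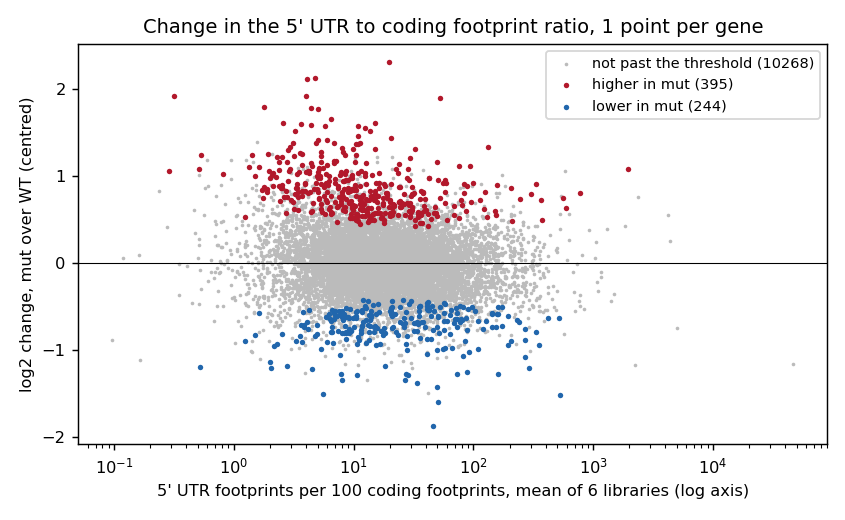
Log2 change of the centred 5' UTR to coding ratio (mut over WT, vertical axis) against the mean ratio of the 6 libraries (horizontal log axis), with 1 point per tested gene. The 395 genes with a higher ratio lie mostly at low ratios, and the 244 with a lower one spread over higher ratios.

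The largest rises were in genes with short 5' UTRs, from 6 to 95 bases, and few 5' UTR footprints in WT. Atp5k, which encodes the small e subunit of mitochondrial ATP synthase (chromosome 5, 108433244 to 108434448, minus strand), had 35.4, 34.5 and 29.4 5' UTR footprints per 100 coding footprints in mut pools and 3.14, 8.58 and 7.23 in WT pools. No mut pool came near a WT pool, and the change was 2.31 ± 0.25 (log2, SE; adjusted p = 1.5e-04). Rtraf, an RNA-binding protein of the tRNA ligase complex (chromosome 14, 19811351 to 19823824, minus strand), had 6.67, 7.45 and 6.15 per 100 in mut pools and 1.03, 1.96 and 1.39 in WT pools, a change of 2.11 ± 0.22 (adjusted p = 1.3e-04). Ldlrad3, a membrane protein related to lipoprotein receptors, had 5.35, 10.6 and 7.87 per 100 in mut pools and 1.19, 1.84 and 1.87 in WT pools.

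The other 6 of the 9 rises described included mitochondrial and membrane traffic genes. Hsd17b10, a mitochondrial dehydrogenase that is also part of mitochondrial RNase P, had 8.53, 6.94 and 8.05 per 100 in mut pools and 1.24, 4.03 and 1.69 in WT pools. Mrps27, a protein of the small mitochondrial ribosomal subunit, had 3.88, 4.06 and 3.71 in mut pools and 0.70, 1.52 and 1.41 in WT pools. Vps11, of the complexes that tether endosomes and lysosomes, had 3.22, 2.28 and 2.67 in mut pools and 0.48, 1.47 and 0.49 in WT pools. Alg11, Rnf121 and Dalrd3 rose by 1.78, 1.59 and 1.58. Of these 9 genes 4 were still called without WT pool 1. In all 9 genes the 5' UTR footprints alone also passed the test, and in none did the coding footprints, beside 8.65% and 0.202% of all genes. The 9 were chosen by the ratio of these same counts, so this is not separate support. In 7 of the 9, the lower bound for reads outside the coding sequence was 0 in every library, so none of their 5' UTR counts could be placed wholly before the start codon.

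**Figure D3:**
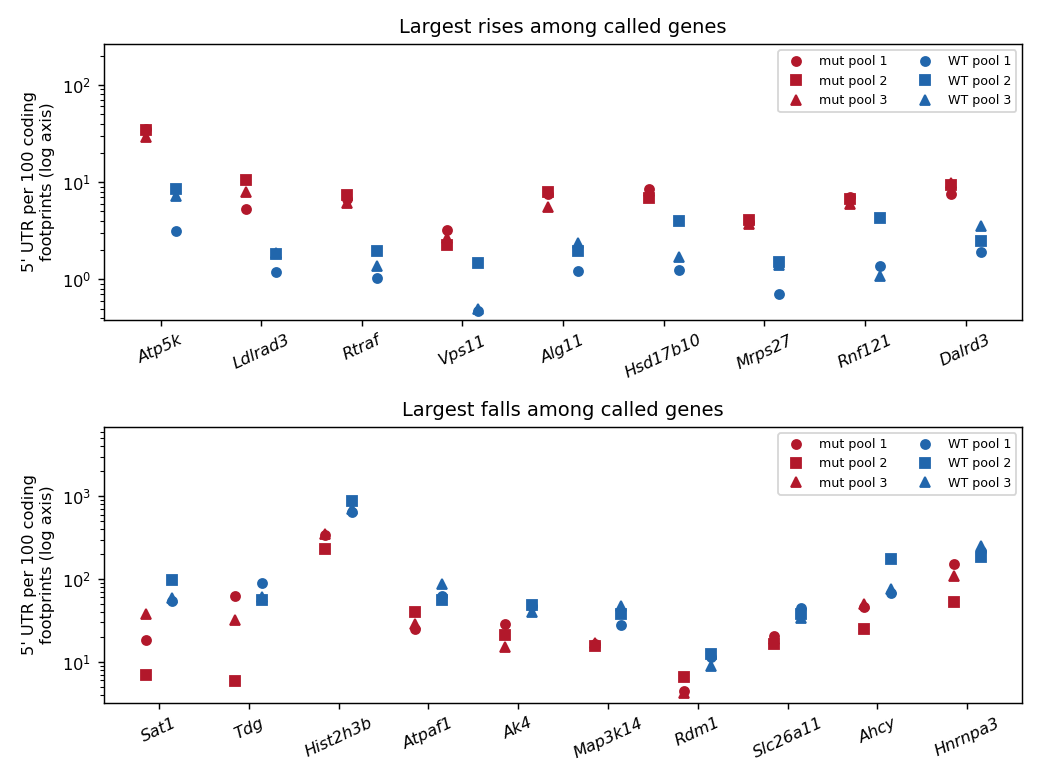
5' UTR footprints per 100 coding footprints (log axis) in each pool, mut left of WT, for 9 of the largest rises (top) and the 10 largest falls (bottom) among called genes. Mut pools lie above WT pools for Atp5k, at 29.4 to 35.4 against 3.14 to 8.58, and below them for Hist2h3b, at 230 to 353 against 652 to 877.

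The largest falls were led by Sat1, the enzyme that acetylates spermidine and spermine (chromosome X, 155213132 to 155216449, minus strand). Its ratio was 18.6, 6.90 and 38.2 per 100 in mut pools and 54.5, 98.3 and 58.4 in WT pools, a change of -1.88 ± 0.38 (log2, SE; adjusted p = 0.0090). The counts were small, with 11, 4 and 21 5' UTR footprints in mut pools and 139, 57 and 52 in WT pools. Hist2h3b, a histone H3 gene (chromosome 3, 96268654 to 96269141), had 335, 230 and 353 per 100 in mut pools and 652, 877 and 704 in WT pools. It fell by 1.52 (adjusted p = 2.8e-05), while its coding footprints rose by 1.32 (adjusted p = 0.0032), and reads of near-identical histone genes cannot be assigned to 1 of them with certainty. Hnrnpa3, an RNA-binding protein, had 150, 52.7 and 108 per 100 in mut pools and 216, 184 and 253 in WT pools, with mut pool 2 lowest.

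Tdg, Atpaf1, Ak4, Map3k14, Rdm1, Slc26a11 and Ahcy completed the 10 falls, with changes of -1.60 to -1.28. In 7 of the 10 the mean was under 50 5' UTR footprints per library. Slc26a11, a sulfate transporter, had 20.5, 16.7 and 19.1 per 100 in mut pools and 44.2, 37.8 and 33.6 in WT pools, on 9 5' UTR footprints in each mut pool. Only 2 of the 10, Sat1 and Rdm1, a DNA repair gene, also passed the test in 5' UTR footprints alone. Coding footprints had a positive log2 change in 9 of the 10, beside a median change of 0.01 over all genes, and passed the test only in Hist2h3b. They are the denominator of the ratio by which the 10 were chosen, so this is not separate support. Some of these counts were small too, as for Ahcy with 28, 44 and 48 in mut pools and 97, 15 and 58 in WT pools. Without WT pool 1 the ratio was called in 3 of the 10 falls.

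Genes of replication-dependent histones, the proteins that package newly made DNA in dividing cells, had mostly lower ratios in mut. Of 24 measured, 14 were called lower and 1 higher, beside 2.24% lower and 3.62% higher over all genes tested. Their median change was -0.62, and -0.01 over all genes tested. Hist1h4i, a histone H4 gene, had 50.6, 60.5 and 63.8 per 100 in mut pools and 118, 104 and 135 in WT pools. Hist1h2bc, the 1 called higher, had 2874, 2480 and 2894 per 100 in mut pools and 719, 1344 and 1460 in WT pools. Without centring 6 histones were lower, with a median of -0.38. With a correction for 5' UTR GC content 5 were lower and 2 higher, with a median of -0.38. In reads outside the coding sequence 4 histones could be tested, of which 1 was higher and none lower, with a median of -0.04. Without WT pool 1 4 were lower, and without WT pool 3 9 were. The median change of their coding footprints was 0.43, against -0.04 for their 5' UTR footprints.

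Hox genes encode transcription factors of anterior to posterior identity. Of 30 measured, 5 were lower and 1 higher, beside 2.24% lower and 3.62% higher over all genes, and 29 had negative values, with a median of -0.40. With the GC correction 5 were lower and 1 higher and the median was -0.26; in reads outside the coding sequence 1 of 25 was lower and 1 higher, with a median of -0.44. Hoxb6 had 60.7, 76.9 and 78.5 per 100 in mut pools and 102, 102 and 110 in WT pools (change -0.78 ± 0.15, adjusted p = 0.0074). Hoxd8, the 1 that rose, had 187, 141 and 176 per 100 in mut pools and 82.0, 80.6 and 77.4 in WT pools. Without centring 2 Hox genes were lower with a median of -0.17, without mut pool 2 16 were, without mut pool 1 2 and without mut pool 3 3 were, and without WT pool 1 or WT pool 3 none was.

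Among 25 neural progenitor genes, 3 were lower and none higher, beside 2.24% and 3.62% of all genes, with a median of -0.22 that became 0.01 without centring. Sox2, a transcription factor that maintains neural progenitors, had a ratio of 2.12, 0.73 and 1.36 per 100 in mut pools and 2.64, 2.69 and 2.39 in WT pools (change -1.14 ± 0.20, adjusted p = 0.0048). Trim71, a regulator of developmental timing, had 87.8, 62.5 and 94.8 in mut pools and 145, 116 and 144 in WT pools, and its coding footprints rose by 1.65 (adjusted p = 0.019). Igf2bp2, an RNA-binding protein, was the third. Without WT pool 1 none of the list was called, without mut pool 2 7 were lower and 1 higher, and without mut pool 1, WT pool 2 or WT pool 3 2 were lower.

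Of 41 nuclear-encoded respiratory chain genes, 5 were higher and 3 lower, beside 3.62% and 2.24% of all genes, with a median of -0.11 that became 0.13 without centring. Ndufb8, a subunit of complex I, had 4.65, 5.95 and 5.54 per 100 in mut pools and 1.52, 2.63 and 1.90 in WT pools (change 1.25 ± 0.20, adjusted p = 0.0027). Cox6a1, a subunit of cytochrome c oxidase, had 33.2, 26.7 and 35.3 in mut pools and 8.71, 18.9 and 12.8 in WT pools. Without WT pool 1 3 of the list were higher and none lower, and without WT pool 3 4 were higher and 1 lower.

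Of 37 Hedgehog pathway genes, 2 were higher and none lower, beside 3.62% and 2.24% of all genes. Their median was -0.10 and became 0.13 without centring. None of the list was called without WT pool 1 or WT pool 3, without mut pool 1 1 was higher, and without mut pool 3 or WT pool 2 1 was higher and 1 lower. With the GC correction 1 was higher. The 2 genes encode kinases or kinase subunits that act on Gli proteins. Csnk1a1, casein kinase 1 alpha, had 25.2, 17.2 and 19.6 per 100 in mut pools and 10.8, 12.8 and 10.1 in WT pools. Prkaca, a catalytic subunit of protein kinase A, had 38.8, 21.3 and 29.1 in mut pools and 15.4, 17.8 and 17.4 in WT pools. Ptch1, the Hedgehog receptor, had 8.64, 8.56 and 9.03 in mut pools and 6.27, 7.18 and 7.01 in WT pools, which did not overlap before centring, but its centred change of 0.15 ± 0.15 did not pass (adjusted p = 0.60). Shh, the ligand, had 24.4, 29.3 and 30.2 in mut pools and 35.9, 28.6 and 34.7 in WT pools (change -0.51 ± 0.16, adjusted p = 0.072).

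Of 27 mRNAs known for regulatory upstream reading frames, Sat1 was the only one called, beside 2.24% of all genes with a lower ratio. The lower bound for its reads outside the coding sequence averaged 0.56 per 100 in mut pools and 1.60 in WT pools. Its whole 5' UTR ratio averaged 21.2 and 70.4, so most of these counts could not be placed before the start codon. With DESeq2 none of the list was called, and in reads outside the coding sequence none of 25 was. Atf4, the transcription factor of the integrated stress response, held more footprints in its 5' UTR than in its coding sequence. It had 800, 543 and 679 per 100 in mut pools and 683, 671 and 787 in WT pools, and these groups overlapped before centring. After centring all mut pools lay below all WT pools, as in 13.6% of all genes tested. Its centred change of -0.34 ± 0.14 did not pass edgeR's test (adjusted p = 0.15). Ppp1r15a, a phosphatase subunit that ends that response, had 444, 205 and 381 in mut pools and 421, 375 and 503 in WT pools (adjusted p = 0.11). Of the 18 genes chosen by name across these groups, 16 were tested. With edgeR 0 of these passed and 6 had an unadjusted p under 0.05, beside 639 and 2523 of all 10907 genes. DESeq2 called 0 of the 16.

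Among 30 initiation factors outside eIF3, 2 were higher and none lower, beside 3.62% and 2.24% of all genes. None of them was called without WT pool 1 or WT pool 3, and 1 was higher without mut pool 3. Eif2a, an initiator tRNA-binding factor, had 13.9, 10.7 and 11.47 per 100 in mut pools and 5.43, 7.89 and 5.89 in WT pools. Eif4b, a cofactor of the helicase eIF4A, had 4.06, 4.302 and 5.25 in mut pools and 1.58, 3.21 and 1.82 in WT pools. None of 12 measured eIF3 subunits passed edgeR's test and 2 had an unadjusted p under 0.05, beside 639 and 2523 of all 10907 genes. DESeq2 called 0 of these subunits, and their median was 0.00. Of 32 BMP and TGF-beta genes, 2 were higher and 2 lower, beside 3.62% and 2.24% of all genes, and without WT pool 1 or WT pool 3 none was called. Among the called genes were Id2 and Id4, related inhibitors of basic helix-loop-helix factors, Id2 higher and Id4 lower. Id2 had 39.1, 31.6 and 43.3 per 100 in mut pools and 18.9, 22.2 and 19.9 in WT pools, while Id4 had 115, 104 and 105 in mut pools and 141, 139 and 156 in WT pools.

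**Figure D4:**
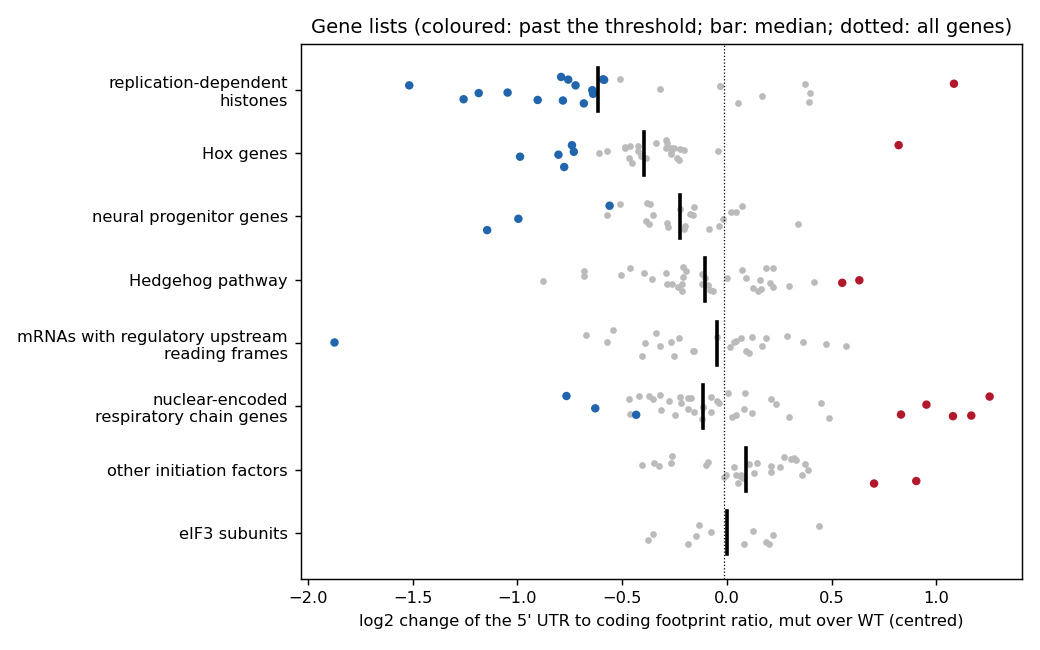
Log2 change of the centred 5' UTR to coding ratio (mut over WT) for the measured members of 8 gene lists; coloured points passed an adjusted p of 0.05, black bars are list medians and the dotted line is the median of all genes. Histones have a median of -0.62 and Hox genes of -0.40. Without centring these medians are -0.38 and -0.17. Those of neural progenitor, respiratory chain and Hedgehog genes and of mRNAs with regulatory upstream reading frames then turn positive.

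The change of the ratio ran with the GC content of the 5' UTR in mut pools 1 and 3. In mut pool 1, the median centred difference from the WT mean was -0.27 (log2) for genes with up to 57.1% GC and 0.22 for genes above 73.9%. In mut pool 3 these values were -0.15 and 0.16, and in mut pool 2 0.02 and -0.01. WT pools stayed between -0.02 and 0.01 in the same classes. Of genes above 73.9% GC, 7.25% were called higher and 1.49% lower, and of genes up to 57.1% GC, 1.67% and 3.25%. In RNA the median change was 0.00 in the lowest and 0.01 in the highest class. With a GC term in the fit 693 genes were called, among them 522 of the 639.

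**Figure D5:**
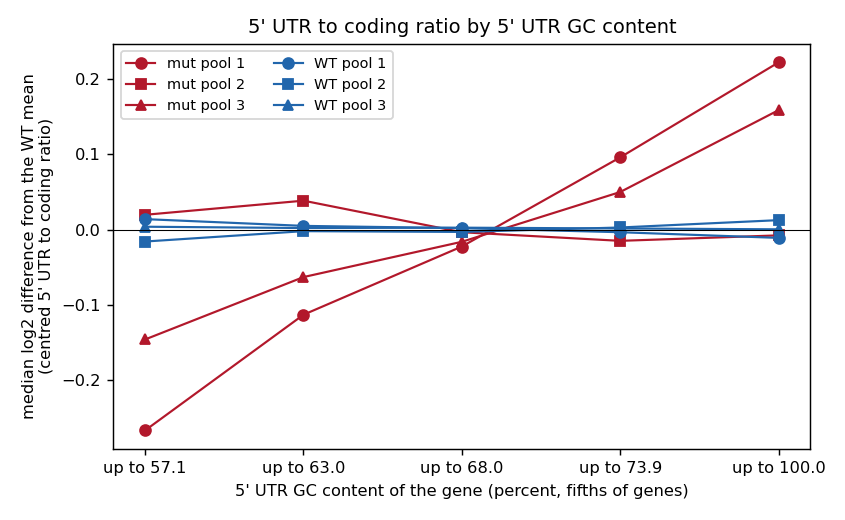
Median log2 difference of the centred 5' UTR to coding ratio from the WT mean, by class of 5' UTR GC content, with 1 line per pool (mut first in the legend). Mut pools 1 and 3 run from -0.27 and -0.15 in the lowest class to 0.22 and 0.16 in the highest, and mut pool 2 and the WT pools stay near 0.

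Called genes had shorter 5' UTRs and another share of G after the start codon. The median 5' UTR had 120 bases in genes with a higher ratio, 130 in those with a lower one and 198 in genes not called. A G directly after the start codon was present in 70.4% of genes with a higher ratio, 44.2% of those with a lower one and 52.7% of genes not called. Of genes with no upstream ATG in the 5' UTR 4.59% were called higher and 2.79% lower, and of genes with at least 4 upstream ATGs 0.87% and 1.82%. Calls in both directions were also frequent in 5' UTRs of up to 50 bases, with 7.97% higher and 5.54% lower. The median ratio there was 8.16, 6.82 and 8.12 per 100 in mut pools and 5.66, 7.09 and 6.03 in WT pools, which overlapped. In the fifth of genes with the lowest ratios, the median centred difference from the WT mean was 0.09, 0.07 and 0.15 in mut pools. In WT pools it was -0.05, 0.10 and -0.04, so that WT pool 2 lay among the mut pools. Upstream ATGs were not tested apart from 5' UTR length. A C followed by 4 pyrimidines at the 5' end was held by 2.36% of genes with a higher ratio, 2.21% of those with a lower one and 2.36% of genes not called. These shares describe annotated transcripts, and genes are not independent replicates.

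RNA libraries of the same pools were used to test whether the footprint ratio moved with the RNA ratio. Of 8888 genes tested in RNA, 2 passed (0.0225%), both higher. DESeq2 called 0, with 120 at an unadjusted p under 0.05. RNA libraries held fewer 5' UTR reads. Over the genes tested in footprints, the median was 22 to 43 per gene in RNA libraries and 70 to 316 in footprint libraries. The RNA test therefore had less power, and few calls do not show an unchanged RNA ratio. When the footprint change was tested against the RNA change in 1 model, 97 of 8729 genes passed (1.11%), 59 higher (0.676%) and 38 lower (0.435%), of which 90 were also called in footprints alone. To leave out a pool here, both its footprint and its RNA library were dropped. The number of genes passing was 2 without WT pool 1, 45 without WT pool 2, 3 without WT pool 3 and 37 without mut pool 3. Rtraf had the smallest p, with 11.95 ± 2.88 5' UTR reads per 100 coding reads in mut RNA and 12.6 ± 0.57 in WT RNA (SD, n = 3), and a footprint change of 2.19 relative to RNA (edgeR adjusted p = 8.1e-05). Tra2b, a splicing regulator, had 68.3, 61.5 and 48.3 footprints per 100 in mut pools and 22.8, 27.0 and 27.0 in WT pools, nearly all of them outside the coding sequence. H2afx, the histone variant phosphorylated at DNA breaks, had 73.0, 57.6 and 66.4 in mut pools and 113, 88.9 and 111 in WT pools.

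Restricted to reads outside the coding sequence, 202 of 8188 genes passed (2.47%), 162 higher and 40 lower. Of the 395 genes with a higher ratio 221 could be tested in this way, 217 with the same sign and 71 past the threshold. Of the 244 with a lower ratio 146 could, 139 with the same sign and 32 past it. Among genes not called, 6731 of 7821 also had the same sign. Reads outside the coding sequence are part of the 5' UTR count, so the tests are not independent. Ccnj, a cyclin, was among those past it, with 42.6, 35.6 and 39.1 5' UTR footprints per 100 in mut pools and 16.5, 18.5 and 16.0 in WT pools, and Id2 and Trim71 were also called.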

How the data were processed

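The authors deposited raw counts, 1 per lane, for each transcript and each of its parts. Per the submitters' processing notes, cutadapt, STAR, bedtools and the mm10 build were used; their versions, strandedness and the handling of multi-mapping reads were not given in the sources used here. Lanes and 2 runs were summed per library. Of 122941 transcript identifiers, 121271 matched GENCODE vM21 with version, 1522 without, and 148 had no gene. Of the genes, 65.7% had several coding transcripts, and 3763 had tied ones. Coding depth was 10725887 to 14073724 counts in mut and 16372783 to 56050833 in WT footprint libraries, which limits genes with few 5' UTR counts.

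The ratio was tested with edgeR 4.0.16 (R 4.3.3) on 12 columns (5' UTR and coding counts of 6 libraries), with library, part, and part by genotype as terms, TMM scaling of each part, a low-count filter (filterByExpr, count of 10, total of 15) and Benjamini-Hochberg adjusted p under 0.05. SE was taken as |log2 change| divided by the root of F. The relative test added the RNA libraries. limma 3.58.1 and DESeq2 1.42.0 were alternatives; median ratios used a pseudocount of 0.5. Tables and figures used Python 3.11.15, pandas 2.3.3, NumPy 2.4.6 and Matplotlib 3.10.9.

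The genes, lists and tests were chosen with earlier results of these data known. Named were 18 fixed genes; the 10 largest rises and falls past the threshold with non-overlapping centred ratios and a mean of at least 20 5' UTR counts, predicted genes left out and 1 rise not reported here; and up to 4 list members of smallest p, with others singled out after their values were seen.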

Additional observations from a re-analysis of the deposited data

Results flagged for a closer look

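Mut footprint pool 2 had 3.57 footprints in 3' UTRs per 100 coding footprints, outside the 5' UTR comparison and above the 1.82 to 1.92 of the WT pools. The change of the footprint ratio differed from the change of the RNA ratio in 97 genes by edgeR's test of the difference itself.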

How the results depend on the processing

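The summed ratio and the median gene ratio kept their direction under all 13 alternatives tried, with differences of 0.14 to 0.30 (summed 0.14 to 0.28) when 1 library was left out. The count of 639 genes was 1021 without centring, 1038 with no filter, 366 with libraries thinned to the smallest, 0 with limma, 202 for reads outside the coding sequence (chosen after seeing the data) and 97 relative to RNA; leaving out 1 library gave 48 to 1031. The 944 genes changed in 5' UTR footprints were 613 with the replicate number as a block, 1446 with no filter and 47 to 2001 without 1 library. The 22 genes changed in coding footprints were 235 with no filter, 816 by DESeq2 and 5 to 2097 without 1 library. The 2 genes changed in RNA were 0 by DESeq2 and 0 to 3 without 1 library. The 97 genes relative to RNA were 63 with the replicate block. They were 2 to 87 without 1 pool, which left out both its footprint and its RNA library. With the replicate block 608 genes had a changed ratio. Deviations of same-numbered pools correlated at 7.6e-05, -0.016 and -0.057. The labels give mut and WT pools shared numbers without saying what these mean. Such correlations cannot show whether same-numbered pools were collected or prepared together. Near 0, Eif3c turned to 0.10 without centring and 0.45 for reads outside the coding sequence, Gli1 to 0.038 without centring and 0.039 when thinned, and Gli2 to -0.090 when thinned; without 1 library Gli2 ranged from -0.027 to 0.19 and Eif5 from -0.055 to 0.23; none passed the test in either direction. The causes were not tested. WT libraries were deeper than mut libraries, and genes with few 5' UTR footprints are the least certain.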
